A study of Mus musculus with 12 samples.

Results

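The genes described here encode 7 drug efflux transporters of the ATP-binding cassette (ABC) superfamily: Abcb1a, Abcb1b, Abcc1, Abcc3, Abcc4, Abcc5 and Abcg2. They were taken by name from a deposited table of 24458 mouse genes, and all 7 were present and passed the filter on low values, which required a normalized count of 10 or more on average across the libraries and which 12198 genes passed. RNA was sequenced from fibroblasts of mouse embryos, a connective tissue cell type, passaged no further than the fifth passage. The cells were kept in control medium or treated with apigenin or chrysin, both at 50 µM and for 24 h, and each of the 3 groups had 4 libraries. Apigenin and chrysin are plant flavones, and their difference is a hydroxyl on the B ring, present in apigenin and missing in chrysin. No genotype, strain or embryonic age is stated for the fibroblasts, and the sources used here do not tell whether untreated cells received the solvent of the flavones. Separate cultures are not stated for the 4 libraries of a group, so the p-values below measure the spread among these libraries, which may be technical.

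ABC transporters are membrane proteins that use ATP, bound at a pair of nucleotide-binding domains, to move compounds across a membrane. Several carry drugs, dietary flavonoids and their conjugates out of cells, and high levels of them are a classic route to multidrug resistance. In mice, P-glycoprotein is encoded by Abcb1a and Abcb1b, whereas humans have a single gene for it. Abcc1, Abcc3, Abcc4 and Abcc5 encode multidrug resistance-associated proteins (MRPs), which carry organic anions such as glutathione and glucuronide conjugates or cyclic nucleotides. Abcg2 encodes the breast cancer resistance protein (BCRP), which works as a dimer and carries sulfated and other conjugates.

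Both P-glycoprotein genes are close copies, which bears on how well their reads can be told apart. On mm9 (NCBIM37, GENCODE vM1), Abcb1a lay at chr5:8660077-8748575 and Abcb1b at chr5:8798147-8866314, both on the plus strand and each with 28 exons. Their coding sequences, of 3831 bases each, were 88% identical, and 20.3% of the 50-base stretches of Abcb1a also occurred in Abcb1b. A run of 338 bases over exons 13 and 14 was identical in both, and it holds the codons of the ABC signature LSGGQ of the first nucleotide-binding domain, from base 223 of the run. The stretch of 120 bases that leaves this run is printed to show how alike the copies are there. It lay in exons 14 and 15, at chr5:8702885-8713227 in Abcb1a and chr5:8825205-8825591 in Abcb1b, and the capital marks the only base that differs.
Abcb1a: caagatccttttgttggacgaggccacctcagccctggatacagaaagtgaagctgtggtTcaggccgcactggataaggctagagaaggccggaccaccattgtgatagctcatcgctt
Abcb1b: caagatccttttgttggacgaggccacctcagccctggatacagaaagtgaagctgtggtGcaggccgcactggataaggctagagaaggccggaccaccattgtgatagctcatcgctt
The least alike stretch of 60 aligned bases lay in exon 16, at chr5:8714924-8714983 in Abcb1a and chr5:8827363-8827422 in Abcb1b. It differed at 25 bases, given in capitals, so reads from there carry the identity of their gene.
Abcb1a, exon 16: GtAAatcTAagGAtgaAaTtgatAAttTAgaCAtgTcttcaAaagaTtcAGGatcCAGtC
Abcb1b, exon 16: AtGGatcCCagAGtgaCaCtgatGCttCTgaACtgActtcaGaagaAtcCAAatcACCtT
The counting of reads that match both copies is not described in the sources used here, so the levels of Abcb1a and Abcb1b are uncertain. No 50-base stretch of the coding sequence was shared between any other pair of the 7 genes.

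The other 5 genes were spread over 4 chromosomes of mm9. Abcc1 lay at chr16:14361651-14475830 on the plus strand and Abcc5 at chr16:20331376-20426467 on the minus strand, with 31 exons each after overlapping exons were merged. Abcc3 lay at chr11:94204612-94254311 on the minus strand with 30 merged exons. Abcc4 lay at chr14:118881914-119105441 on the minus strand with 31. Abcg2 lay at chr6:58534517-58642863 on the plus strand with 20. A noncoding gene on the opposite strand, Gm5106, overlapped 143 exonic bases of Abcb1b, and the strand setting of the counting is not given.

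The libraries held 4298640 to 15512634 reads in genes, and 3 reads, taken as the floor of detection, equalled 1.44 normalized counts in the deepest library and 6.24 in the shallowest. Such floors cover counting error only. In a principal component analysis the 3 groups separated, and within the apigenin group replicates 2 and 4 stood apart from replicates 1 and 3. Values from either pair of apigenin libraries alone are therefore given beside the transporter results whose call they change or whose size they move most. These pairs were picked after the data were seen, and each holds 2 libraries. The adjusted p from a pair leaves out the spread between the pairs, so it is not stronger evidence than that from all 4 libraries. The fibroblast label was checked with 10 marker genes, whose summed normalized count was 150654 to 162117 in untreated libraries, 68026 to 80951 with apigenin and 83188 to 96796 with chrysin. Of those 10 markers, 9 fell and 1 rose with apigenin, and 7 fell and 0 rose with chrysin. Over all genes tested, 23.2% fell and 23% rose with apigenin, and 26.7% fell and 26.3% rose with chrysin. These shares also belong beside the marker counts that follow. The sum of 8 macrophage and leukocyte markers was 408 to 508, 936 to 1147 and 412 to 520 in the same order of groups. Of those 8, 2 were higher with apigenin and 1 was lower with chrysin. Endothelial markers summed to at most 95.7, with Tie1 and Cldn5 at 0 in every library, and 6 epithelial markers to at most 73.2. Of 2 endothelial markers tested, 2 were lower with apigenin and 1 with chrysin. The 1 epithelial marker tested was lower with apigenin and not called with chrysin. The sum of 6 pericyte and smooth muscle markers was 15667 to 18618 untreated, 9374 to 11116 with apigenin and 26499 to 27868 with chrysin. Of those 6, 3 were lower with apigenin and 4 higher with chrysin. The sum of 6 neural markers was 3481 to 4030, 1259 to 1628 and 2343 to 2707 in the same order of groups. Of 4 neural markers tested, 1 was higher and 2 were lower with each flavone. The part of these cell types in the transporter results was not tested. In such bulk RNA fewer cells of a type and less RNA per cell cannot be told apart.

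Most of the efflux transporter genes changed with both flavones, but not in 1 direction. Against untreated cells, apigenin came with higher Abcb1a, Abcc1, Abcc3 and Abcc4 and with lower Abcc5 and Abcg2, while Abcb1b did not pass the test. Chrysin came with higher Abcb1a, Abcb1b, Abcc1, Abcc4 and Abcg2 and with lower Abcc5, while Abcc3 did not pass. A gene is called changed here at an adjusted p under 0.05 from limma, adjusted over all 12198 genes. Both comparisons use the same 4 untreated libraries.

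These counts stand against a large background of change. With apigenin 6 of 7 transporters were called (4 higher, 2 lower), against 46.2% of all genes tested, of which 23% were higher and 23.2% lower. With chrysin 6 of 7 were called (5 higher, 1 lower), against a background of 53%, with 26.3% higher and 26.7% lower. The median log2 fold change of the 7 genes was 0.83 with apigenin and 0.73 with chrysin, against 0.01 and -0.03 over all genes tested. The 4 treated libraries did not overlap the 4 untreated ones for 5 of 7 transporters with apigenin, where 45.1% of all genes showed this (22.2% higher, 22.8% lower), and for 6 of 7 with chrysin, where 51.4% did (25.7% higher, 25.7% lower). All levels are log2 of a normalized count plus 1, so that folds of genes with few reads come out too small.

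**Figure D1:**
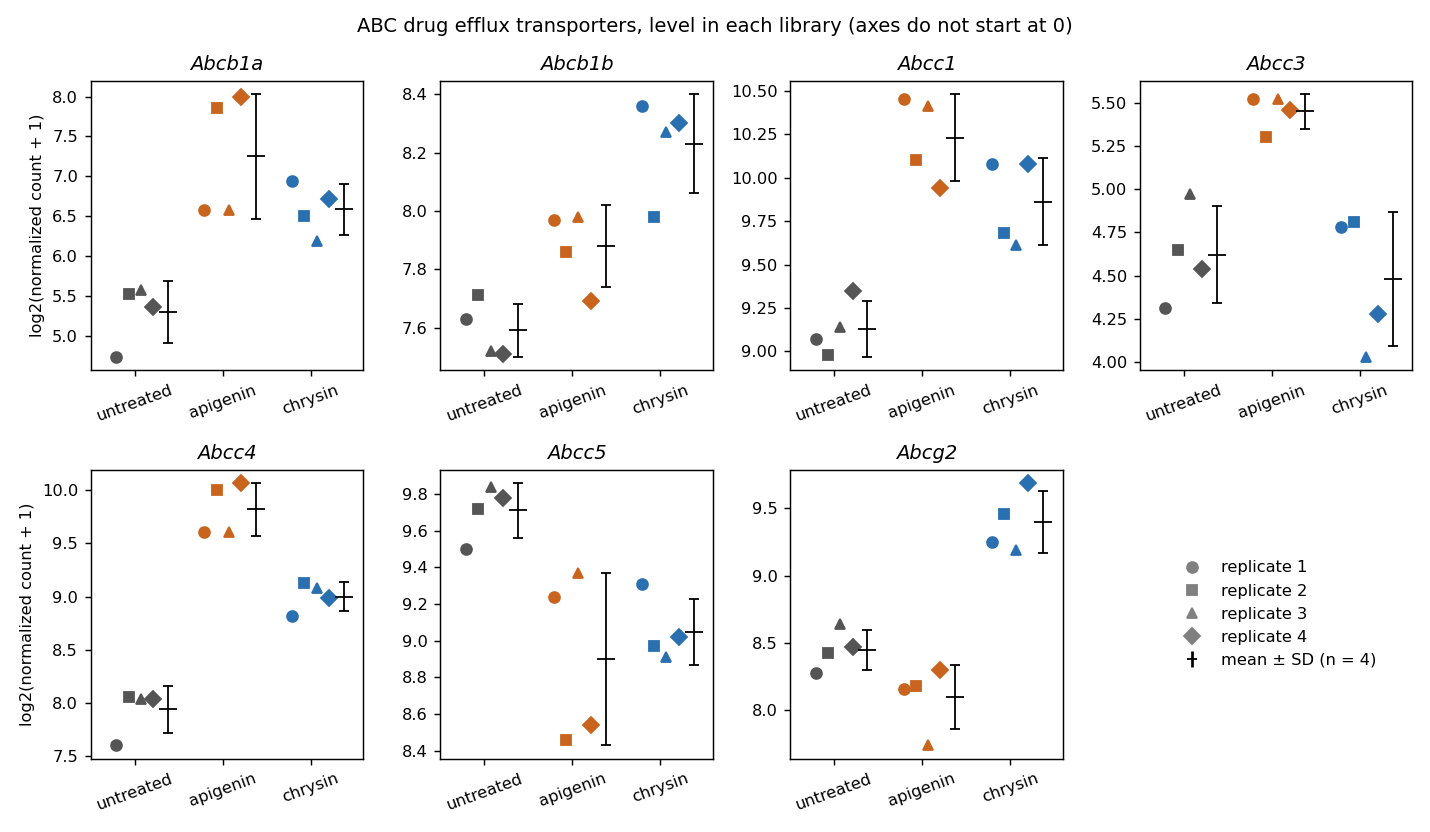
Level of each transporter gene, as log2(normalized count + 1), in each of the 12 libraries, with a separate axis for each gene that does not start at 0; symbols give the replicate number and bars the mean ± SD of the 4 libraries. Abcb1a and Abcc5 in the apigenin group fall into a pair of high and a pair of low libraries, and Abcg2 is at most 8.30 in the apigenin libraries and at least 9.19 in the chrysin libraries.

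Abcb1a, one of the genes for P-glycoprotein, rose with both flavones. Its log2 level was 4.74, 5.52, 5.57 and 5.36 in untreated replicates 1 to 4, 6.58, 7.86, 6.58 and 7.99 with apigenin, and 6.94, 6.50, 6.19 and 6.71 with chrysin. As reads this was 15 to 66 untreated, 82 to 480 with apigenin and 43 to 188 with chrysin. Every treated library lay above every untreated one, untreated replicate 1 was the lowest of all, and apigenin replicates 2 and 4 were far above the rest. The rise was 3.88-fold with apigenin (log2 1.96 ± 0.32 SE, limma adjusted p = 0.000106) and 2.44-fold with chrysin (log2 1.29 ± 0.32, limma adjusted p = 0.00283). Only 1.4% of all genes tested rose more with apigenin and 4.83% with chrysin. From apigenin replicates 1 and 3 alone the log2 rise was 1.28 (limma adjusted p = 0.00117), and from replicates 2 and 4 alone it was 2.63 (limma adjusted p = 3.76e-08). These pairs of 2 libraries were picked with the data seen, and their p-values leave out the spread between the pairs.

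Abcb1b, the second P-glycoprotein gene, moved less. Its level was 7.63, 7.71, 7.52 and 7.51 in untreated libraries, 7.97, 7.86, 7.98 and 7.69 with apigenin and 8.36, 7.98, 8.27 and 8.30 with chrysin. All 4 chrysin libraries lay above the untreated ones, whereas apigenin replicate 4 fell just under untreated replicate 2. With chrysin the gene rose 1.56-fold (log2 0.64 ± 0.13, limma adjusted p = 0.000495). With apigenin the log2 difference was 0.29 ± 0.13, with a 95% confidence interval of 0.02 to 0.56, and it was not called (limma adjusted p = 0.074, 0.0348 to 0.159 over the other settings tried). Apigenin replicates 1 and 3 alone gave 0.39 (limma adjusted p = 0.0469), replicates 2 and 4 alone gave 0.19 (limma adjusted p = 0.31), and limma-voom on the reads recovered from the values gave a called rise as well.

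Since both genes encode P-glycoprotein, the part of Abcb1a in their summed length-scaled level was also computed. It was 9.37%, 14.6%, 16.9% and 15.0% in untreated libraries. With apigenin it was 23.0%, 44.3%, 23.0% and 49.4%, and with chrysin 22.8%, 22.0%, 15.7% and 20.7%. The share was highest in apigenin replicates 2 and 4, and chrysin replicate 3 overlapped the untreated libraries. Per kb of the main coding transcript the share was 46.6% and 51.7% in those 2 apigenin libraries. Which gene was the larger thus depended on the length used in replicate 4, while in replicate 2 Abcb1b was the larger by both lengths. As reads, Abcb1a had 480 against 479 of Abcb1b in replicate 2 and 265 against 215 in replicate 4. Abcb1b was the larger by every measure in the other 10 libraries. How shared reads were assigned to the copies could move these shares.

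Abcc4 encodes MRP4, an exporter of cyclic nucleotides, prostaglandins, urate and conjugated steroids. Its level was 7.60, 8.06, 8.04 and 8.04 in untreated libraries, 9.61, 10.00, 9.61 and 10.07 with apigenin and 8.82, 9.13, 9.08 and 8.99 with chrysin. The 3 groups did not overlap at any point, with apigenin highest, and untreated replicate 1 sat below its 3 neighbours. In normalized counts the gene went from 193 to 266 in untreated libraries to 780 to 1076 with apigenin and 451 to 558 with chrysin. The rise was 3.7-fold with apigenin (log2 1.89 ± 0.14, limma adjusted p = 1.26e-08) and 2.1-fold with chrysin (log2 1.07 ± 0.14, limma adjusted p = 6.54e-06). With apigenin 1.53% of all genes tested rose more, and with chrysin 7.04%. Both calls held under every other setting tried, leaving out each library included.

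Abcc1 encodes MRP1, which exports glutathione conjugates, oxidized glutathione and leukotriene C4. Its level was 9.07, 8.98, 9.14 and 9.35 in untreated libraries, 10.45, 10.10, 10.41 and 9.94 with apigenin and 10.08, 9.68, 9.61 and 10.08 with chrysin. Each treated library was above all untreated ones. Among the apigenin libraries, replicates 1 and 3 were the higher pair, the reverse of what Abcb1a and Abcc4 showed. Abcc1 rose 2.13-fold with apigenin (log2 1.09 ± 0.14, limma adjusted p = 6.7e-06) and 1.66-fold with chrysin (log2 0.73 ± 0.14, limma adjusted p = 0.000278). Both calls also held under all of those settings.

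Abcc3 encodes MRP3, which exports glucuronides and bile salts and is best known from liver and gut. It was the least abundant of the 7 genes, with 10 to 80 reads per library. Its level was 4.31, 4.65, 4.97 and 4.54 in untreated libraries, 5.52, 5.30, 5.52 and 5.46 with apigenin and 4.78, 4.81, 4.03 and 4.28 with chrysin. The apigenin libraries were all above the others, while those of chrysin spread around the untreated ones. With apigenin the rise was 1.78-fold (log2 0.83 ± 0.29, limma adjusted p = 0.0272). That call sat near the threshold: it was lost without untreated replicate 1 (limma adjusted p = 0.0674), 2 (0.0503) or 4 (0.0599) or without apigenin replicate 1 (0.0532), 3 (0.0551) or 4 (0.0598), and over the other settings the adjusted p ran from 0.00437 to 0.0674. It was not called from apigenin replicates 1 and 3 alone (log2 0.90, limma adjusted p = 0.0823) or from replicates 2 and 4 alone (log2 0.77, limma adjusted p = 0.105). With chrysin the log2 difference was -0.14 ± 0.29, with a 95% confidence interval of -0.76 to 0.48 (limma adjusted p = 0.705), so a moderate change either way would not have been detectable at this depth.

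Abcc5 encodes MRP5, an exporter of cyclic nucleotides and, in experimental systems, of haem and nucleotide analogues. It was the only MRP gene of the 4 to fall. Its level was 9.50, 9.72, 9.84 and 9.78 in untreated libraries, 9.24, 8.46, 9.37 and 8.54 with apigenin and 9.31, 8.97, 8.91 and 9.02 with chrysin. No treated library reached the untreated range, and apigenin replicates 2 and 4 were the lowest. Abcc5 fell 1.75-fold with apigenin (log2 -0.81 ± 0.18, limma adjusted p = 0.00152) and 1.58-fold with chrysin (log2 -0.66 ± 0.18, limma adjusted p = 0.00554). The apigenin pairs differed in size: the log2 change was -0.41 from replicates 1 and 3 alone (limma adjusted p = 0.0137) and -1.21 from replicates 2 and 4 alone (limma adjusted p = 4.31e-08).

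Abcg2, the gene for BCRP, moved in opposite directions with the flavones. Its level was 8.28, 8.43, 8.64 and 8.47 in untreated libraries, 8.16, 8.18, 7.74 and 8.30 with apigenin and 9.25, 9.46, 9.19 and 9.69 with chrysin. The chrysin libraries were all far above the untreated ones, and apigenin replicate 4 lay just inside the untreated range while the other 3 lay below it. With chrysin Abcg2 rose 1.92-fold (log2 0.94 ± 0.14, limma adjusted p = 3.29e-05), a rise exceeded by 9.12% of all genes tested. With apigenin it fell 1.28-fold (log2 -0.36 ± 0.14, limma adjusted p = 0.0454). This small fall was no longer called without untreated replicate 2 (limma adjusted p = 0.0752), 3 (0.136) or 4 (0.0857), apigenin replicate 2 (0.0515) or 3 (0.152) or chrysin replicate 2 (0.0558), and the adjusted p over the other settings ran from 0.0179 to 0.152. From apigenin replicates 1 and 3 alone the log2 change was -0.50 (limma adjusted p = 0.0121), and from replicates 2 and 4 alone it was -0.21 and not called (limma adjusted p = 0.205).

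**Figure D2:**
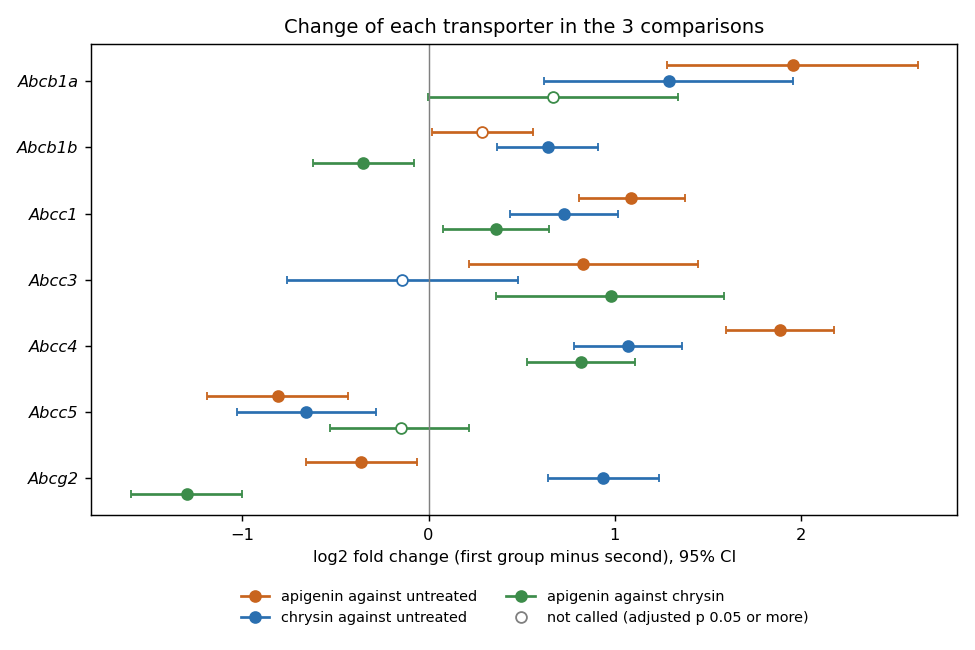
Log2 fold change with its 95% confidence interval for the 7 transporter genes in the 3 comparisons, first group minus second; open points were not called. Abcg2 lies right of 0 for chrysin and left of 0 for apigenin, Abcc5 lies left of 0 for both flavones, and Abcc4 lies right of 0 in all 3 comparisons.

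The compounds were then compared directly at the same dose and time, as 1 pair that differs by the B-ring hydroxyl. Abcc1, Abcc3 and Abcc4 were higher with apigenin than with chrysin and Abcb1b and Abcg2 lower, so that 5 of 7 transporters were called, against 50.7% of all genes tested (24.7% higher, 26.1% lower). Libraries of the compounds did not overlap for 3 of 7 transporters, against 41% of all genes. The median log2 difference was 0.36 over the 7 genes and 0.01 over all genes tested.

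Abcg2 showed the widest gap, a 2.46-fold lower level with apigenin than with chrysin (log2 -1.30 ± 0.14, limma adjusted p = 1.22e-06). No apigenin library came near the lowest chrysin library, and only 4.09% of all genes tested were lower by more. Abcc4 was 1.76-fold higher with apigenin (log2 0.82 ± 0.14, limma adjusted p = 0.000107), and Abcc3 1.97-fold higher (log2 0.98 ± 0.29, limma adjusted p = 0.0105). Neither gene had overlapping libraries. With apigenin replicates 2 and 4 alone the Abcc3 difference was 0.91 and was not called (limma adjusted p = 0.0579).

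The remaining differences between the compounds were small or unsettled. Abcc1 was 1.29-fold higher with apigenin (log2 0.36 ± 0.14, limma adjusted p = 0.034), with overlapping libraries. It was not called without apigenin replicate 1 (limma adjusted p = 0.0963) or 3 (0.0939) or chrysin replicate 2 (0.109) or 3 (0.111), and the other settings gave 0.00535 to 0.159. Apigenin replicates 1 and 3 alone gave a log2 difference of 0.57 (limma adjusted p = 0.00112), and replicates 2 and 4 alone gave 0.16 (limma adjusted p = 0.337). Abcb1b was 1.27-fold lower with apigenin (log2 -0.35 ± 0.13, limma adjusted p = 0.0301), again with overlap. That call was lost without apigenin replicate 2 (limma adjusted p = 0.0589) or 4 (0.0948) or chrysin replicate 1 (0.072), 3 (0.0556) or 4 (0.0698), with 0.0126 to 0.0948 over the other settings. Apigenin replicates 1 and 3 alone gave -0.25 (limma adjusted p = 0.175), and replicates 2 and 4 alone gave -0.45 (limma adjusted p = 0.0156).

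Abcb1a and Abcc5 were not called between the compounds. For Abcb1a the apigenin to chrysin ratio was 1.59, with a 95% confidence interval of 0.997 to 2.53 (limma adjusted p = 0.0903, 0.0177 to 0.276 over the other settings). It rested on which apigenin libraries were used: the log2 difference was -0.004 from replicates 1 and 3 alone and 1.34 from replicates 2 and 4 alone (limma adjusted p = 0.000298). Leaving out apigenin replicate 1 (limma adjusted p = 0.0259) or 3 (0.0284) was enough to make the call. For Abcc5 the log2 difference was -0.15 with a 95% confidence interval of -0.53 to 0.22 (limma adjusted p = 0.494), and it was 0.25 from apigenin replicates 1 and 3 alone and -0.55 from replicates 2 and 4 alone (limma adjusted p = 0.000887).

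To compare the genes with each other, normalized counts were divided by the kilobases of merged exons. In untreated cells Abcc5 was highest at 79.4 ± 7.94 normalized counts per kb (SD, n = 4), followed by Abcg2 at 70.5 ± 7.43, and these overlapped. Abcc1 (45.6 ± 5.06), Abcb1b (44.2 ± 2.93) and Abcc4 (42.9 ± 6.16) followed and could not be ordered beyond their spread by this length. Abcb1a at 7.17 ± 1.74 and Abcc3 at 4.20 ± 0.852 were lowest and overlapped each other. The order was thus led by MRP5 and BCRP, and most of the P-glycoprotein transcript level came from Abcb1b.

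Each flavone came with another order. With apigenin Abcc4 led at 160 ± 27.4 normalized counts per kb, followed by Abcc1 at 97.9 ± 16.4, without overlap between them. Abcg2 (55.2 ± 8.71), Abcb1b (54.0 ± 4.96), Abcc5 (46.9 ± 14.9) and Abcb1a (30.8 ± 15.6) came next, each overlapping its neighbour, and Abcc3 stayed last at 7.53 ± 0.532. With chrysin Abcg2 led at 136 ± 22.2, above Abcc4 at 89.8 ± 8.24. Abcc1 (76.1 ± 13.2), Abcb1b (69.1 ± 7.62) and Abcc5 (50.4 ± 6.44) followed, each overlapping its neighbour, and Abcb1a (17.7 ± 3.86) and Abcc3 (3.84 ± 1.03) were lowest. Summed over the 7 genes, the level was 260 to 314 normalized counts per kb in untreated libraries, 435 to 467 with apigenin and 406 to 485 with chrysin, and both treated ranges lay above the untreated one.

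The order depends in part on the length used, since the merged exons of Abcc1 span 12.37 kb, those of Abcc5 10.59 kb and those of Abcg2 4.99 kb, well over their main coding transcripts of 6.79, 5.81 and 2.49 kb. Per kb of those transcripts Abcc5 and Abcg2 still led in untreated cells, at 145 ± 14.5 and 141 ± 14.9, and Abcg2 still led with chrysin at 273 ± 44.5. Untreated Abcc1, at 82.9 ± 9.21, then lay above Abcb1b (44.2 ± 2.93) and Abcc4 (42.9 ± 6.16) without overlap. With chrysin Abcc1 (138 ± 24.0) came after Abcg2, followed by Abcc5 (91.9 ± 11.7) and Abcc4 (89.8 ± 8.24), which overlapped each other. With apigenin Abcc1 came first at 178 ± 29.8 and Abcc4 second at 160 ± 27.4, with overlapping libraries. By group mean, Abcb1a and Abcc3 were lowest in all 3 groups by either length. In apigenin replicates 2 and 4, however, Abcb1a lay above Abcc5 per kb of merged exon. Abcb1a was at 42.2 and 46.3 there, and Abcc5 at 33.1 and 35.1.

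**Figure D3:**
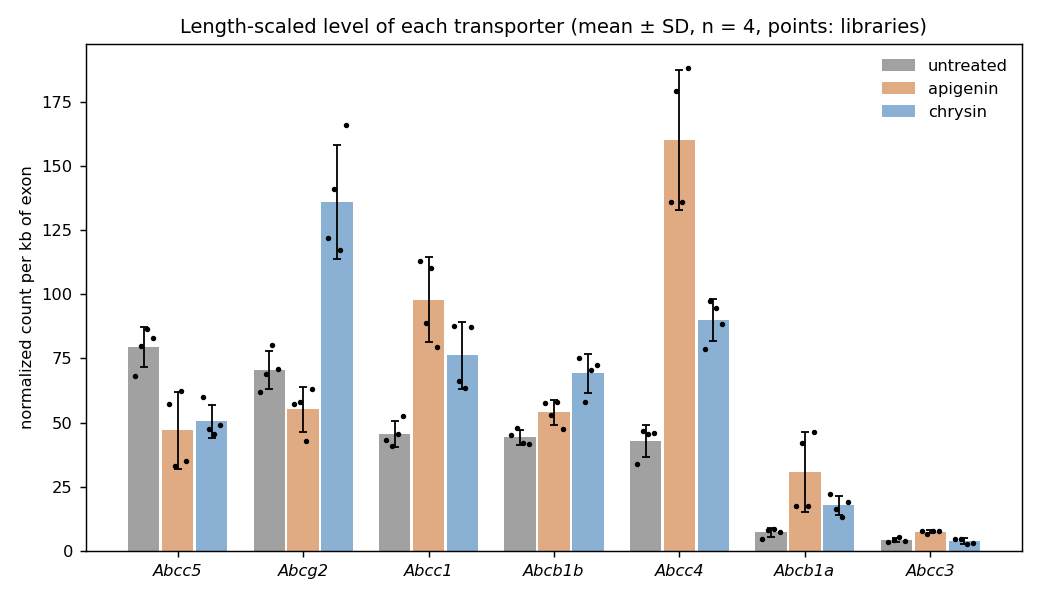
Normalized count per kilobase of merged exon for each transporter gene in the 3 groups, as bars of the mean with SD (n = 4) and points for libraries. Abcc5 and Abcg2 are highest in untreated cells, Abcc4 with apigenin at 160 and Abcg2 with chrysin at 136.

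For each transporter, the genes whose profile over the 12 libraries lay closest were found by the root mean square (RMS) of the differences in log2 level, each gene first taken relative to its untreated mean, among 11663 genes. This is a description of likeness only. For scale, the transporters' own profiles departed from their untreated means by an RMS of 0.421 (Abcb1b) to 1.43 (Abcb1a). Closest to Abcc4 was Rragd, a Rag GTPase of amino acid signalling to mTORC1, at an RMS of 0.151, followed by Tnfrsf1b at 0.188. Closest to Abcg2 were Srf, the serum response factor, and Clic4, both at 0.153. Closest to Abcb1a was Nceh1, a cholesteryl ester hydrolase, at 0.228. For Abcb1b it was Ttf1 at 0.117, for Abcc1 Slc23a2, an ascorbate transporter, at 0.184, for Abcc3 Cpt1a, the carnitine palmitoyltransferase of fatty acid oxidation, at 0.169, and for Abcc5 Gtf2i at 0.126. None of these nearest genes was another of the 7 transporters.

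Efflux transporter genes are known targets of regulators that respond to foreign compounds and oxidative stress, chiefly NRF2 (gene Nfe2l2) with its small MAF partners, the aryl hydrocarbon receptor (Ahr), and the nuclear receptors PXR (Nr1i2) and CAR (Nr1i3). Nfe2l2 rose with apigenin (log2 0.66 ± 0.08, limma adjusted p = 4.92e-06) and with chrysin (log2 1.23 ± 0.08, limma adjusted p = 4.33e-09). Mafg rose by 1.28 ± 0.12 and 1.39 ± 0.12. Ppard, a fatty acid-sensing nuclear receptor, rose by 0.75 ± 0.10 and 1.16 ± 0.10. Ahr, named here after its values were seen, was lower with both (log2 -1.57 ± 0.23 with apigenin and -2.60 ± 0.23 with chrysin). Nr1i2 and Nr1i3 had 0 reads in every library, where the floor is 3 reads. Of 25 regulators listed, 22 were tested: 9 rose and 6 fell with apigenin, and 11 rose and 5 fell with chrysin, so 68.2% and 72.7% were called, beside 46.2% and 53% of all genes tested.

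A separate list held 18 genes known as NRF2 targets, without the transporters. Of these, 16 rose and 1 fell with apigenin, with a median log2 fold change of 1.37. With chrysin 12 rose and 1 fell, with a median of 0.57. Whether NRF2 or another regulator acted on the transporter genes in these cells was not tested. Over all genes tested 23% were higher and 23.2% lower with apigenin, and 26.3% and 26.7% with chrysin. Hmox1, which degrades haem, rose by 3.54 ± 0.08 on the log2 scale with apigenin and 2.47 ± 0.08 with chrysin. Slc7a11, which imports cystine for glutathione synthesis, rose by 3.95 ± 0.11 and 3.52 ± 0.11, and Srxn1, a sulfiredoxin, by 3.34 ± 0.09 and 2.02 ± 0.09. Nqo1, a quinone reductase, rose with apigenin (log2 1.63 ± 0.34), at a level of 10.41 and 10.62 in replicates 1 and 3 but 8.96 and 8.92 in replicates 2 and 4, and was not called with chrysin (log2 0.43 ± 0.34, limma adjusted p = 0.315).

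Promoter sequences were read to show what motifs those regulators could meet at the transporter genes. RefSeq windows (GRCm38.p6, 250 bases before to 50 after a start) were at hand for 5 of the 7 genes, with 8 windows. Abcc1 and Abcc3 have no window here. The core of the antioxidant response element, searched as TGACNNNGC on both strands, occurred in 3 windows of 2 genes, Abcb1a and Abcc4, and in 12.4% of 32851 windows of the same length over all genes. A window of each is printed, chosen with their rise with apigenin known, with the match in capitals on the strand of the gene. Whether a match goes with a change in level was not tested. Abcc1 and Abcc3, also higher with apigenin, could not be searched. The only RefSeq start of Abcb1a here is an upstream one. Its window, at chr5:8566841-8567140 on the plus strand, matched the same positions of mm9 exactly, where that start lies 92.99 kb before the GENCODE vM1 start of the gene. The sequence at the GENCODE start was not searched. The match is on the reverse strand and begins at base 27 from the RefSeq start.
Abcb1a, upstream RefSeq start: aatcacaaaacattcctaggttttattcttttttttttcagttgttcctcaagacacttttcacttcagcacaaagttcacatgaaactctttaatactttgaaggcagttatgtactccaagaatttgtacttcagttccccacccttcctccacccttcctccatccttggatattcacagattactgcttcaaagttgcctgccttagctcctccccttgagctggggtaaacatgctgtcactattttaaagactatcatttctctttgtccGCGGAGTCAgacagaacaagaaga
Abcc4, from chr14:118706170-118706469 on the minus strand, has a reverse-strand match that begins at base -25 from the start, which on mm9 is the GENCODE start of the gene.
Abcc4 promoter: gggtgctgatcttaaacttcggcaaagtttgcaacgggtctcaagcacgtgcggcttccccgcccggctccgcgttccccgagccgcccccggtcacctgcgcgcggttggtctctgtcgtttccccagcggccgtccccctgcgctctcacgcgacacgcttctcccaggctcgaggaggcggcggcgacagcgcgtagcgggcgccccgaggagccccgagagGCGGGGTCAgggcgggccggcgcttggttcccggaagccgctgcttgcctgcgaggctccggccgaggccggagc
The window of a second RefSeq start of Abcc4, at chr14:118676882-118677181 and within the gene, holds TGACTCTGC at base -23. GCGTG, the core of the element bound by the aryl hydrocarbon receptor, occurred on either strand in 2 windows, 1 of Abcc4 and 1 of Abcg2, and in 32.4% of all windows. A match is a run of letters and not a measured site, and which start these cells used was not measured.

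The rest of the ABC superfamily gives the setting of these changes. Of 46 other ABC genes, 28 were tested, of which 9 rose and 3 fell with apigenin (median log2 fold change 0.22) and 11 rose and 8 fell with chrysin (median 0.01). As shares, 12 of 28 and 19 of 28 were called, beside backgrounds of 46.2% and 53%. The 18 genes not tested included Abcc2, which encodes the canalicular exporter MRP2 and had at most 1 read in any library, and Abcb11, the bile salt export pump, with at most 2. The P-glycoprotein paralogue Abcb4, a phosphatidylcholine floppase, had 5 to 43 reads per library, rose with chrysin (log2 1.17 ± 0.42, limma adjusted p = 0.0249) with libraries that overlapped the untreated ones, and was not called with apigenin (log2 0.75 ± 0.42). It shares 3.36% of the 50-base stretches of Abcb1a.

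Among the other ABCB and TAP genes, 3 of 8 rose with apigenin and none fell, and 3 rose and 1 fell with chrysin. As shares, 37.5% and 50.0% were called, under the 46.2% and 53% of all genes tested. Abcb6, a porphyrin transporter, rose by 2.01 ± 0.23 with apigenin and 1.30 ± 0.23 with chrysin on the log2 scale. Tap1, which with Tap2 loads peptides for MHC class I, rose by 1.35 ± 0.25 and 1.51 ± 0.25, and Tap2 rose by 1.20 ± 0.19 with apigenin. Tap1 showed the same pairs as Abcb1a, at 7.60 and 7.85 in apigenin replicates 1 and 3 and at 8.90 and 8.91 in replicates 2 and 4. Abcb8, a mitochondrial transporter, fell by 1.39 ± 0.29 with chrysin and did not pass with apigenin (log2 -0.02 ± 0.29). Of 7 other ABCC genes 2 were tested, neither called with apigenin, and with chrysin Abcc10 (MRP7) fell by 1.23 ± 0.39 and the chloride channel gene Cftr rose by 1.45 ± 0.46, on 4 to 52 reads per library.

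The lipid-carrying ABCA class was mixed, with 3 of 8 higher and 2 lower with apigenin and 2 higher and 4 lower with chrysin. As shares, 62.5% and 75.0% were called, beside 46.2% and 53% of all genes tested. Abca3, a lamellar body lipid transporter in lung, rose by 1.67 ± 0.13 and 0.80 ± 0.13. Abca8b rose by 1.30 ± 0.21 and 0.75 ± 0.21. Abca1, the cholesterol exporter, fell by 0.88 ± 0.18 with chrysin and was at 0.02 ± 0.18 with apigenin, and Abca7 fell by 0.94 ± 0.21 with chrysin. Of the other ABCG genes, Abcg1, also a cholesterol exporter, rose by 1.56 ± 0.27 with chrysin and was not called with apigenin (log2 0.37 ± 0.27), and Abcg4 was not called with either. Abcg1 was also lower with apigenin than with chrysin (log2 -1.19 ± 0.27, limma adjusted p = 0.00144), the direction of Abcg2.

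Of the peroxisomal and lysosomal ABCD genes, Abcd4 rose by 0.41 ± 0.16 with apigenin and fell by 0.54 ± 0.16 with chrysin, and Abcd3 rose by 0.27 ± 0.10 with chrysin. ABCE and ABCF proteins have no membrane domains and act in translation. Abce1, a ribosome recycling factor, fell by 0.41 ± 0.09 with apigenin and rose by 0.72 ± 0.09 with chrysin. Abcf1 and Abcf2 rose with both flavones, by 0.33 ± 0.09 and 0.43 ± 0.10 with apigenin.

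**Figure D4:**
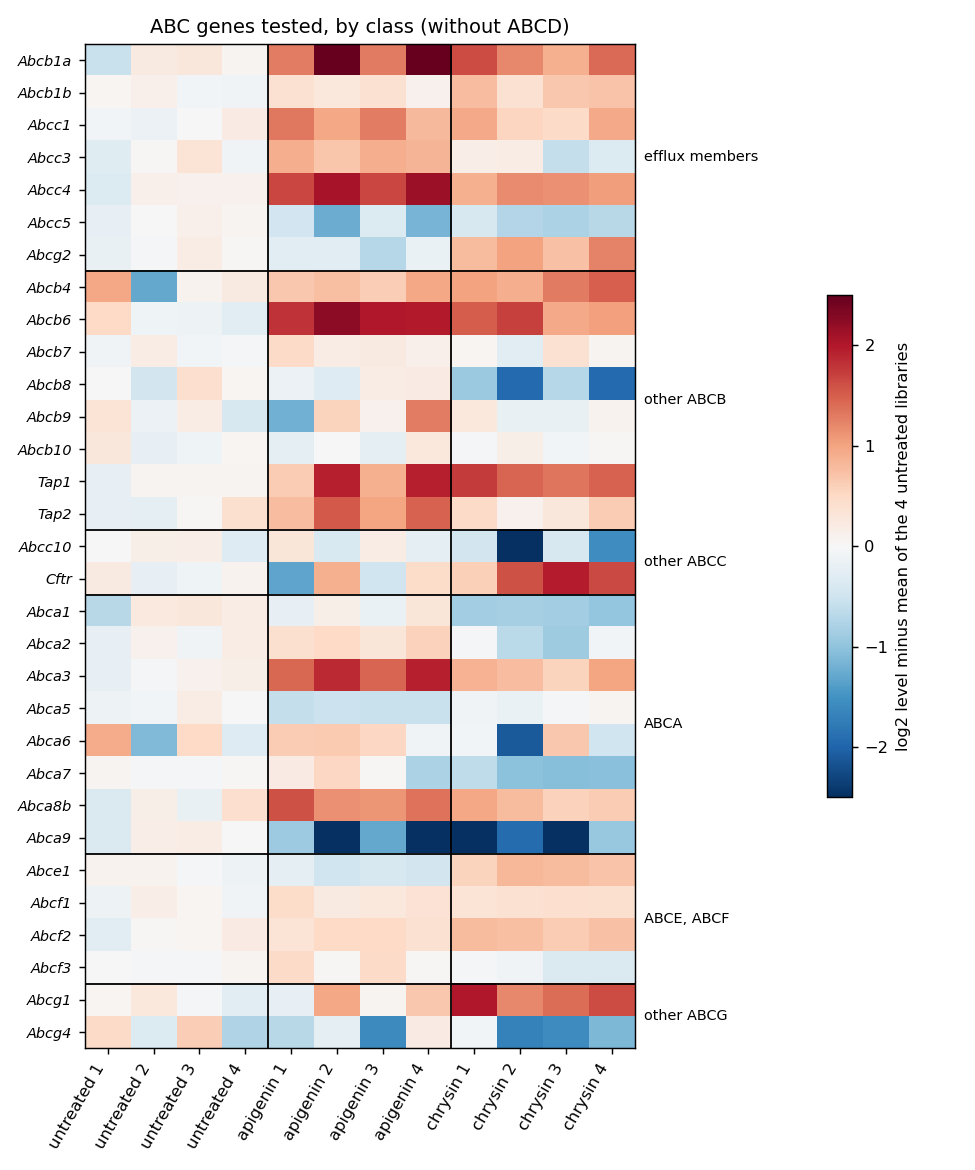
Log2 level of 31 ABC genes tested, without the ABCD class, relative to the mean of the 4 untreated libraries, in each library and ordered by class (red higher, blue lower, colours capped at 2.5). Abcb1a, Abcc4, Abcb6 and Abca3 are red in all 8 treated libraries, Abcc5 is blue in all 8, and Abcg2 and Abce1 are blue with apigenin and red with chrysin.

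Other steps of drug handling were described by lists of the enzymes and carriers that act around efflux. In these lists the shares to set beside the counts are 46.2% of all genes called with apigenin and 53% with chrysin. Of 12 phase I enzymes tested, 5 rose and none fell with apigenin, while 2 rose and 5 fell with chrysin, or 41.7% and 58.3% called, near those shares. Por, the electron donor of cytochromes P450, rose by 0.83 ± 0.12 and 0.90 ± 0.12, and the carbonyl reductase Cbr3 by 1.28 ± 0.20 and 0.85 ± 0.20. Cyp1b1, a target of the aryl hydrocarbon receptor, fell by 1.73 ± 0.34 with chrysin and was at -0.56 ± 0.34 with apigenin. Of 21 conjugating enzymes, whose products the MRPs export, 4 rose and 5 fell with apigenin, and 2 rose and 14 fell with chrysin, with a median of -0.82, so 42.9% and 76.2% were called. Gstm7 fell by 3.07 ± 0.39 and Gstt3 by 1.25 ± 0.15 with chrysin, whereas Mgst1, a membrane-bound glutathione transferase, rose by 1.20 ± 0.12 with apigenin.

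Of 14 uptake and exchange carriers, 4 were higher and 2 lower with apigenin and 2 higher and 3 lower with chrysin, or 42.9% and 35.7% called. Slco2a1, a prostaglandin carrier, rose by 1.32 ± 0.13 with chrysin and was at 0.00 ± 0.13 with apigenin. Slc22a23 rose by 1.29 ± 0.29 with apigenin. Mvp, the major vault protein, fell by 0.63 ± 0.12 with apigenin and 0.36 ± 0.12 with chrysin. Of 13 folding and trafficking partners of membrane transporters, 2 rose and 2 fell with apigenin, while 9 rose and 1 fell with chrysin, or 30.8% and 76.9% called. Cav1, the caveolin of plasma membrane caveolae, fell by 0.84 ± 0.10 with apigenin and rose by 1.07 ± 0.10 with chrysin, and Ezr, an actin linker of membrane proteins, rose by 1.04 ± 0.15 with chrysin.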

How the data were processed

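Groups came from the sample titles. A stranded mRNA kit was used, per the labels' protocols. The submitters' processing notes name STAR, HTSeq, DESeq2, cutadapt and FastQC with mm9, and give no versions or settings in the sources used here. The authors deposited log2 values, which the values show to be log2 of a normalized count plus 1. After this was undone, 99.966% to 100.0% of values under 500 reads lay within 0.05 of whole reads per library, which gave the read totals. The 12198 genes averaging 10 or more normalized counts were fitted on the deposited log2 values with limma 3.58.1 in R 4.3.3, with a mean per group over 12 samples, trend and robust variances, two-sided tests and Benjamini-Hochberg adjustment over all 12198. Errors are SE unless SD is named, and intervals are 95%. The fit was also run on simulated data in which few genes changed, unlike here, so that run bears on the code only. Same-numbered samples of the groups were checked for pairing, and the numbers did not pair them. The transporters, gene lists and alternatives were chosen with earlier results of these data known. From each list, up to 3 genes with the smallest p per flavone could be named; Ahr, Abcb4, Abcc2, Abcb11 and Abcg4 are named outside that rule, with their values seen. Other settings were a replicate block, other normalizations, filters, pseudocounts and thresholds, array weights, limma-voom on the recovered reads, and leaving out each library. Lists were described by counts and medians only.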

Additional observations from a re-analysis of the deposited data

Results flagged for a closer look

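Abcc4 in untreated replicate 1 had a log2 level of 7.6 and was the lowest of its group, far from the other 3 untreated libraries, with a gap of 0.949 of the group's range. It was the only such value among the 21 groups of 4 libraries looked at, and chance flags about 1 in 20.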

How the results depend on the processing

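Of 21 transporter differences, 14 kept their direction and their side of the threshold under all other settings tried (22 or 23 each, 12 of them leaving out a library). The count of transporters lower with apigenin than untreated fell from 2 to 1 with no filter, without trend and robust estimation, in the 8 samples alone, at an adjusted p under 0.01 and, added after seeing the data, with apigenin replicates 2 and 4 only, and was 1 to 2 when a library was left out. The count lower with apigenin than chrysin fell from 2 to 1 in the 8 samples alone, at an adjusted p under 0.01 and with apigenin replicates 1 and 3 only, and was 1 to 2 when a library was left out. The count higher with apigenin than chrysin fell from 3 to 1 at an adjusted p under 0.01, and was 2 with median centring, no filter, no trend and robust estimation or the 8 samples alone, where Abcc1 was lost, at a mean of at least 50, where Abcc3 was not tested, and with apigenin replicates 2 and 4 only, and 2 to 3 when a library was left out. Array weights kept 3 but dropped Abcc1 (adjusted p = 0.159) and added Abcb1a (adjusted p = 0.0177). Abcc3 with chrysin, not called, changed sign under quantile normalization (0.157) and without chrysin replicate 3 (-0.253 to 0.007 over libraries left out). With apigenin replicates 1 and 3 only, the uncalled differences between compounds changed sign for Abcb1a (-0.004) and Abcc5 (0.249). Abcc3 was not tested at a mean of at least 50. With the replicate block the counts were unchanged, at 4 higher and 2 lower with apigenin, and no transporter's call changed; same-numbered samples correlated at -0.096 to 0.102, above 0.1 in 1 of 12 pairs. Abcc3, with 10 to 80 reads, is limited most by depth.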
